A study of Mus musculus with 6 samples.

Results

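Basal cells of belly skin were compared with basal cells of back skin from pregnant mice. The comparison rested on 4 of the 6 arrays of the study, 2 of ventral and 2 of dorsal epidermis, all from female C57BL/6 mice of 10 weeks at 16 days post coitum (dpc). The cells were sorted from trypsinised skin as α6-integrin+ cells that had not taken up propidium iodide, a dye of dead cells, and each array measured the total RNA of 1 sorted sample. The 2 arrays of virgin ventral skin, from mice of the same sex, strain and age, entered the fit for its spread and are quoted for context only. The labels do not say whether ventral and dorsal cells came from the same animals or how many mice gave 1 array, so p-values measure the spread between these arrays, which may be partly technical. Virgin dorsal cells were not analysed here, and a difference between sites that pregnancy brings about cannot be told apart from one that is always there. A gene was counted as a member of the comparison when its probe set had a detection call of present on both arrays of ventral or on both of dorsal cells, which held for 10781 of the 18193 genes on the array.

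Keratinocytes make up most of the epidermis, and those that sit on the basement membrane, held there by integrins, renew it by dividing. Cells on their way to the dead cornified surface switch keratins, through spinous and granular stages, and lastly cross-link a protein envelope. Skin cells also keep a record of where on the body they lie, in part through Hox and T-box transcription factors, which are switched on in different regions of the embryo. Wnt signals, amplified by secreted R-spondins that bind receptors of the Lgr family, keep basal cells dividing. In late pregnancy the belly skin stretches over the growing uterus while the skin of the back does not, and the comparison of both sites asks which genes are particular to the cells that must cover the larger surface.

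Signals below are MAS5 signals in arbitrary units, a weighted summary of the probe pairs of a probe set that the authors scaled to a common mean on every array. Where a pair of values is given, replicate 1 stands first and replicate 2 second. Log2 fold changes are ventral over dorsal, with the standard error (SE) of limma's fit over 10993 genes, n = 2 arrays per group, and adjusted p is its Benjamini-Hochberg value over those genes. The replicate block adds the replicate number as a term of the fit, because the experiment was run as a pair of repeats. Between ventral and dorsal cells at 16 dpc, deviations of same-numbered arrays from their group mean correlated at 0.448 over genes. Between these groups and virgin ventral cells they hardly did (0.00688 and 0.0289). For the virgin arrays the block thus rests on their numbering and column headers, and the signals do not show the pairing. Of the members, 9913 were called present on all 4 arrays, 107 on both ventral arrays and neither dorsal one, and 103 on both dorsal arrays and neither ventral one. Those last sets had to differ, since the membership rule let them in through the group where they were higher. For their ratios given below as folds, dim signals under the lowest signal called present on their array were raised to it. The median log2 fold change of all members was -0.03 (quartiles -0.18 and 0.12), and 43.1% of members had the higher mean in ventral cells.

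The sorted cells carried the marks of basal keratinocytes at both sites. Krt5, Krt14, Itga6, Itgb4 and Trp63, the basal keratins, hemidesmosome integrins and the transcription factor of stratified epithelia, were called present on all 4 arrays, and none of the 18 members of the basal keratinocyte list passed the test, with log2 fold changes from -0.24 to 0.60. Krt14 stood at 22146 and 36626 in dorsal and at 26244 and 31603 in ventral cells. Markers of Langerhans cells, the antigen-presenting cells of the epidermis, were measured too. The class II gene H2-Aa was at 3236 and 2757 in dorsal and at 3531 and 2635 in ventral cells. Cd207 was weaker, at 250 and 176 in dorsal cells (present on 1 array) and at 304 and 186 in ventral cells (present on 2). Cd3e of T cells, Pecam1 of endothelium, Adipoq of fat cells, Pdgfra of fibroblasts, Hba-a1 of red cells and Pmel of pigment cells were called present on none of these 4 arrays. Other markers of such cells were called, so these cells cannot be taken as absent. Dct of pigment cells was present on 1 dorsal and 2 ventral arrays and Col1a1 of fibroblasts on 1 ventral array. Vwf of endothelium and Hba-a2 of red cells were each present on 2 of the 4 arrays. RNA quality went with the replicate number and not with the site: the ratio of 3′ to 5′ actin signal was 2.04 and 4.47 on dorsal and 1.78 and 3.90 on ventral arrays, and present calls were 24053 and 21285 against 23934 and 21887.

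Of the 10993 genes, 5 rose in ventral cells (0.0455%) and 4 fell (0.0364%), 9 in all (0.0819%), and all 9 lay more than 2-fold apart within each replicate number. Genes with an unadjusted p under 0.05 numbered 559 without the block, where 549.65 would be expected with no difference at all, 775 with the block on all 6 arrays and 1613 with the block on the 4 arrays at 16 dpc alone. With the replicate block on all 6 arrays the same 9 genes and 7 more passed, 11 higher (0.100%) and 5 lower (0.0455%), 16 in all (0.146%). With the block on the 4 arrays at 16 dpc alone, a fit that has 1 residual degree of freedom and leans on the spread of all genes, 186 genes were higher (1.69%) and 103 lower (0.937%), 289 in all (2.63%), again with all 9 among them. The calls without the block are not firm in number: none of the 9 passed once ventral replicate 1, virgin ventral replicate 1 or virgin ventral replicate 2 was left out, although each kept its direction.

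**Figure D1:**
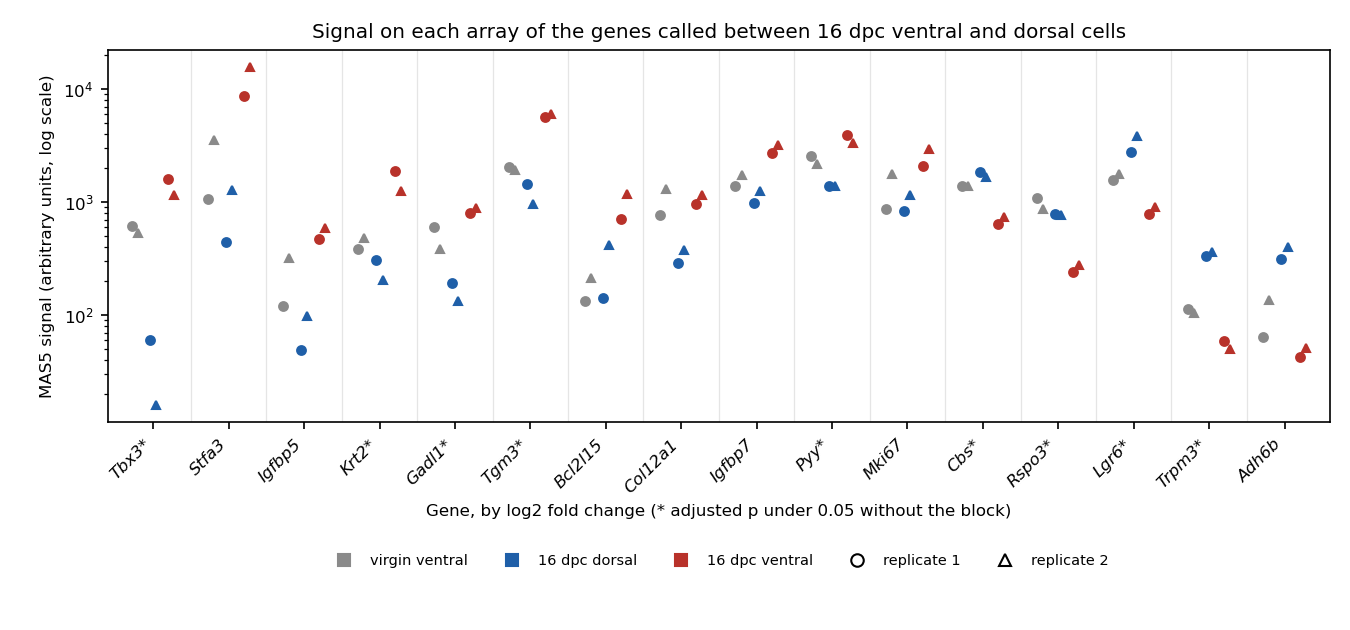
MAS5 signal (arbitrary units, log scale) on each of the 6 arrays for the 16 genes called with the replicate block, ordered by log2 fold change from Tbx3 on the left to Adh6b on the right; circles are replicate 1, triangles replicate 2, colours the 3 groups, and an asterisk marks the 9 genes that also passed without the block. For every gene shown, both ventral points lie on the same side of both dorsal points.

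Tbx3 showed the largest separation. It encodes a T-box transcription factor that mainly represses its targets and is needed for limb and mammary development. Its signal was 60.6 and 16.0 on the dorsal arrays, neither called present, and 1593 and 1164 on the ventral arrays (log2 fold change 5.45 ± 0.52 SE, adjusted p = 0.0152 by limma). Both dorsal signals lay above the lowest signal called present on their arrays. The 43.7-fold ratio is thus one of measured signals and no lower limit. With signals under 32 set to 32 the log2 fold change was 4.95 (adjusted p = 0.0844 by limma). A further Tbx3 probe set gave 19.9 and 34.8 in dorsal and 1429 and 992.3 in ventral cells. Of the other 3, 1 was called present on 1 array and the others on none, and the mean over all Tbx3 probe sets differed by 3.27 (adjusted p = 0.136). Virgin ventral cells, at 613 and 534, lay between both groups at 16 dpc. In RNA of sorted cells, fewer Tbx3-positive cells and less Tbx3 RNA per cell cannot be told apart, and the same holds for every gene below.

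Of the 5 genes that rose, 2 belong to the outer layers of the epidermis. Krt2, a type II keratin of suprabasal cells, had signals of 306 and 207 in dorsal and of 1899 and 1252 in ventral cells, and rose by 2.62 ± 0.28 on the log2 scale (adjusted p = 0.0188). Tgm3, the transglutaminase that cross-links proteins of the cornified envelope and the hair, had 1464 and 964 in dorsal and 5648 and 6036 in ventral cells, and rose by 2.30 ± 0.20 (adjusted p = 0.0152). The signals did not overlap between sites, and a second Tgm3 probe set moved the same way, from 246 and 209 to 667 and 780. In virgin ventral cells Krt2 stood at 386 and 484 and Tgm3 at 2036 and 1940, closer to the dorsal level for both.

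The remaining genes that rose have metabolic or hormonal roles. Gadl1, a decarboxylase of acidic amino acids, measured 192 and 134 in dorsal and 798 and 887 in ventral cells (log2 fold change 2.39 ± 0.28, adjusted p = 0.0230). Pyy, which encodes peptide YY, best known as a gut hormone, measured 1393 and 1388 in dorsal and 3896 and 3349 in ventral cells (1.38 ± 0.16, adjusted p = 0.0230). The ventral signals of both genes were also above those of virgin ventral cells, which were 602 and 384 for Gadl1 and 2571 and 2199 for Pyy.

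Of the 4 genes that fell, 2 amplify Wnt signals. Lgr6, the R-spondin receptor that marks stem cells of the upper hair follicle and of the epidermis between follicles, was at 2778 and 3880 in dorsal and at 788 and 903 in ventral cells, and fell by 1.96 on the log2 scale (SE 0.20, adjusted p = 0.0152). Rspo3, one of the secreted R-spondins, was at 787 and 778 in dorsal and at 241 and 276 in ventral cells, and fell by 1.60 (SE 0.20, adjusted p = 0.0276). These signals did not overlap between sites for either gene. Rspo3 measured 1086 and 877 in virgin ventral cells, so that its lowest values were those of ventral cells at 16 dpc, while Lgr6 in virgin ventral cells, at 1567 and 1783, lay between the sites. A second probe set was called present for Lgr6 (215 and 360 in dorsal, 162 and 134 in ventral cells) and none for Rspo3.

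The other 2 genes that fell were Trpm3, which encodes a cation channel, and Cbs, the enzyme that starts the conversion of homocysteine to cysteine. Trpm3 measured 333 and 359 in dorsal and 59.0 and 50.2 in ventral cells (log2 fold change -2.67 ± 0.30, adjusted p = 0.0230). Cbs measured 1841 and 1684 in dorsal and 647 and 734 in ventral cells (-1.35 ± 0.16, adjusted p = 0.0230). Neither gene overlapped between the sites, and the virgin ventral arrays gave 113 and 105 for Trpm3 and 1406 and 1395 for Cbs.

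Promoters were read for 7 of the 9 genes, from 250 bases before to 50 after each annotated start (RefSeq, GRCm38.p6). They were searched on both strands for GGTGTGA, a core site bound by T-box factors such as Tbx3, and for CTTTGAT, the site of the TCF/LEF factors that Wnt signals act through. The first was found in 0 and the second in 1 of their 9 promoters, where 3.98% and 3.73% of all 32851 promoters of this length hold them. The letters of the keratin and transglutaminase genes that rose and of the receptor that fell are shown 5′ to 3′, with the TCF/LEF match in capitals. The Krt2 promoter lies at chr15:101818120-101818419 on the minus strand, that of Tgm3 at chr2:130012090-130012389 on the plus strand, and that of Lgr6 at chr1:135105227-135105526 on the minus strand.
Krt2: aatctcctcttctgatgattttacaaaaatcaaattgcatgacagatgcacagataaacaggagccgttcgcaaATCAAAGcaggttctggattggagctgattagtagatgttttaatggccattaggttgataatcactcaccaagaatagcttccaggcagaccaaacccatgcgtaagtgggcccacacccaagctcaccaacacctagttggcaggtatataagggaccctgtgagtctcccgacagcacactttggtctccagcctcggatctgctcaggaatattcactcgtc
Tgm3: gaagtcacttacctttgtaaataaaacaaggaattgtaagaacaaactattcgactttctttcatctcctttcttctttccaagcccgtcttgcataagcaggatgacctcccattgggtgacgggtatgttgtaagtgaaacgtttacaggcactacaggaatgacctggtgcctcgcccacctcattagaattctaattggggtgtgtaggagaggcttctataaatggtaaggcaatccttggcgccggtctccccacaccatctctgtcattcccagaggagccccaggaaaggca
Lgr6: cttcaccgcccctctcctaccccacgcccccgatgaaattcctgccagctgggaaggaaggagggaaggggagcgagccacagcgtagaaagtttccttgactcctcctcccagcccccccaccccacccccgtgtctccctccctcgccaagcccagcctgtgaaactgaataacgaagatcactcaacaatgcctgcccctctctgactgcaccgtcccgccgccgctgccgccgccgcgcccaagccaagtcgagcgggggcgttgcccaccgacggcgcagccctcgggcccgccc
The match in Krt2 is CTTTGAT on the opposite strand, 176 bases before the start. The Lgr6 promoter was richer in G and C (67.7%) than those of Krt2 (46.3%) and Tgm3 (46.7%). Tbx3 and Rspo3 were not among the promoters used.

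A further 7 genes passed only with the replicate block on all 6 arrays, 6 higher and 1 lower. That block assumes the same replicate shift in the virgin arrays, which their signals did not show. Stfa3, one of the stefin A genes of mouse that inhibit cysteine proteases, reached the highest signals among them, 443 and 1279 in dorsal and 8667 and 15631 in ventral cells (3.95 ± 0.60, adjusted p = 0.106 without and 3.63e-04 with the block). Its replicate 2 array was the higher one at both sites and in virgin ventral cells (1075 and 3568), and the differences within the replicate numbers were 4.29 and 3.61. Csta1, another stefin, measured 229 and 194 in dorsal and 317 and 458 in ventral cells and was not called.

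From the insulin-like growth factor axis, 2 genes were in this set. Igfbp5 was at 49.6 and 97.5 in dorsal and at 473 and 587 in ventral cells (2.92 ± 0.48, adjusted p = 0.125 without and 0.0107 with the block). Igfbp7 was at 978 and 1256 in dorsal and at 2708 and 3195 in ventral cells (1.41 ± 0.19, adjusted p = 0.0562 without and 0.0102 with the block). Both encode secreted binding proteins, Igfbp5 for the growth factors themselves and Igfbp7 with a weak affinity for them. Of the 9 members of the list, 6 were higher within both replicate numbers and the median was 0.36, but Irs1, which carries the receptor's signal inside the cell, was lower (2227 and 2444 against 1518 and 1419, not called).

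The other genes called only with the block were Col12a1, Mki67, Bcl2l15 and Adh6b. Col12a1, a collagen on the surface of fibrils in tissues under load, had 290 and 375 in dorsal and 966 and 1169 in ventral cells (1.69, adjusted p = 0.124 without and 0.0135 with the block), but a second probe set called present on 3 of these arrays gave 76.8 and 116 against 164 and 129, and the mean of all Col12a1 probe sets differed by 0.40. Bcl2l15, a relative of the apoptosis regulator Bcl2, had 142 and 416 against 704 and 1180 (1.91, adjusted p = 0.495 and 0.0436). Adh6b, an alcohol dehydrogenase, had 314 and 403 in dorsal cells and was not called present in ventral cells, at 42.5 and 51.3 (7.62-fold lower in measured signal, adjusted p = 0.0634 and 0.0148).

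**Figure D2:**
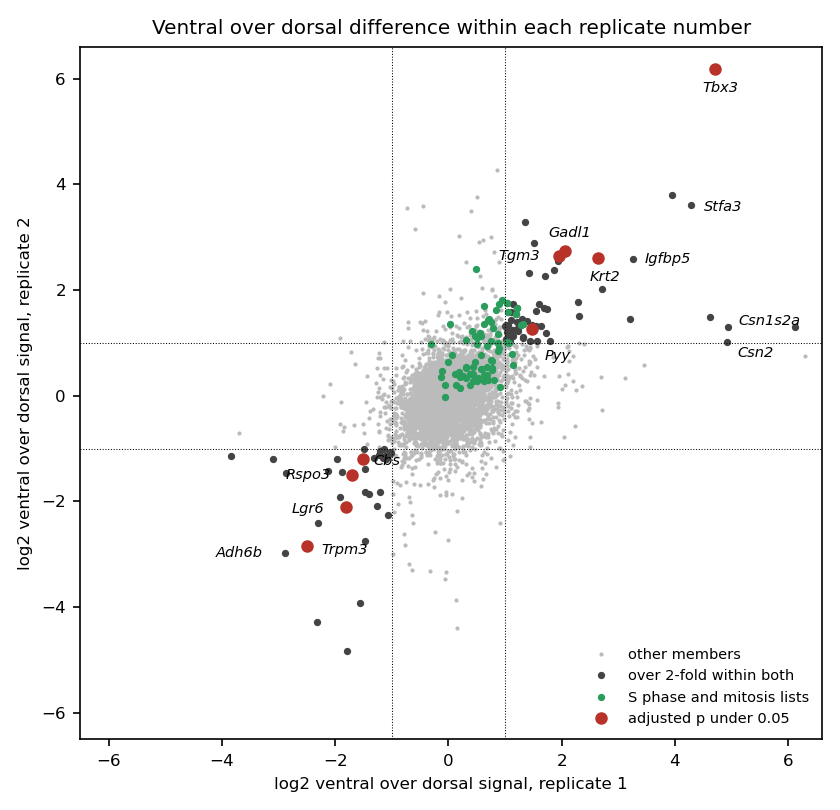
Log2 ratio of ventral over dorsal signal within replicate 1 (horizontal) and within replicate 2 (vertical) for the 10781 members; large red points are the 9 genes called without the block, black points the other genes more than 2-fold apart within both numbers, and green points the S phase and mitosis lists, with dotted lines at 2-fold. Tbx3 stands alone at the upper right, the casein genes Csn2 and Csn1s2a lie much further out along replicate 1 than along replicate 2, and nearly all green points lie above 0 on both axes.

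By size alone, 65 members were more than 2-fold higher (0.603%) and 34 more than 2-fold lower (0.315%) in ventral cells within both replicate numbers, 99 in all (0.918%), a description with no test that holds all 9 called genes. Of these, 11 of the higher genes were called present on neither dorsal array and 14 of the lower ones on neither ventral array. Among the largest differences not named so far, S1pr3, a receptor for sphingosine 1-phosphate, had 70.9 and 101 in dorsal and 464 and 412 in ventral cells (2.37, adjusted p = 0.175), and 0.80 with its other 2 probe sets, called present on none of these arrays, averaged in. Shisa2, which holds immature Wnt and FGF receptors back in the cell, had 74.4 and 26.1 against 284 and 153. The lower genes included Nat8l, the enzyme that makes N-acetylaspartate, with 2744 and 3838 against 1037 and 1057 (adjusted p = 0.106), Rasgrf1, an activator of Ras, with 272 and 258 against 62.1 and 96.1, and the gelatinase gene Mmp9 with 167 and 211 against 72.2 and 59.8.

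Several of the large differences sat near background. At 16 dpc Rasef, Pdzrn4, Mme and Eme1 were called present only in ventral cells, where their signals ran from 14.0 (Rasef) to 119 (Pdzrn4), and Enpp3, Afmid, Gimap4 and Apol11b only in dorsal cells, from 19.1 (Apol11b) to 80.9 (Afmid). With dim signals taken no lower than the lowest signal called present on their arrays, the ratios ran from 1.66-fold for Rasef to 6.48-fold for Pdzrn4. Ccr9, a chemokine receptor of T cells, had 99.5 and 85.7 in dorsal cells and was not called present in ventral cells, at 26.2 and 22.8 (3.78-fold in measured signal). Itga8, an integrin subunit of the follicle bulge and of dermal muscle cells, was present on all 4 arrays at 80.4 and 104 against 33.7 and 24.6. None of these 10 genes passed the test, and for Enpp3 the direction turned (0.54) when its 4 other probe sets, called present on none of the arrays at 16 dpc, were averaged in.

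Genes of the cell cycle were higher in ventral cells as a group, although none passed the test without the block. Of the 35 members of the list for G2 phase and mitosis all 35 had the higher mean in ventral cells, 32 of them within both replicate numbers, with a median log2 fold change of 0.99 (0.71 within replicate 1 and 1.23 within replicate 2). For 30 of the 35 both ventral signals lay above both dorsal ones, which held for 13.2% of all members, while both lay below for 19.7% and the groups did not overlap for 32.9% in all. Of the 37 members for S phase 36 were higher, with a median of 0.46, and 12 did not overlap. Mki67, the gene of the proliferation antigen Ki67, measured 832 and 1163 in dorsal and 2078 and 2982 in ventral cells (1.34 ± 0.33, adjusted p = 0.440 without and 0.0367 with the block). It was the only one of these 72 genes called with the block on all 6 arrays, where 0.100% of all genes were called higher. With the block on the 4 arrays alone, a fit with 1 residual degree of freedom, 22 mitosis and 7 S phase genes were called higher. Of all genes, 1.69% were called higher there.

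Single genes of both lists gave the same picture. Anln and Kif23, which act in the final cut between daughter cells, gave 813 and 733 against 1658 and 2483, and 237 and 190 against 553 and 597. Top2a, which untangles chromosomes, gave 919 and 1221 against 1684 and 2748. Among replication genes Rrm2, which makes deoxynucleotides, gave 1248 and 1662 against 2106 and 3388, and Ccne1, the cyclin of S phase entry, 100.5 and 137 against 207 and 278. Pcna, the sliding clamp of DNA polymerase, differed by 0.32 ± 0.24 and Fen1 by -0.05 ± 0.21, neither of them called. Replicate 2 was the higher array for 52 of the 72 genes in dorsal, for 72 in ventral and for 66 in virgin ventral cells, where Mki67 stood at 865 and 1762.

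**Figure D3:**
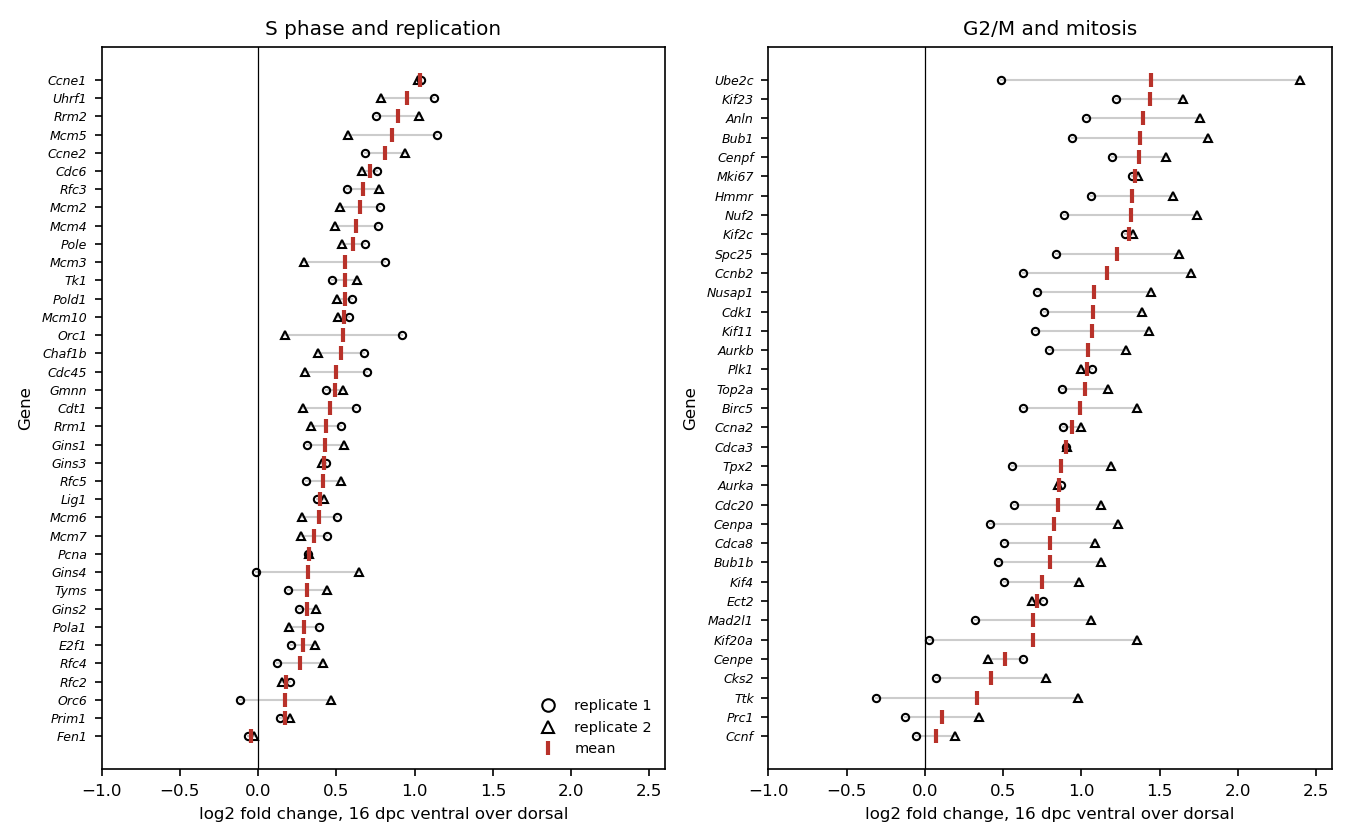
Log2 fold change of ventral over dorsal signal at 16 dpc for the 37 members of the S phase list (left) and the 35 members of the mitosis list (right), each gene on its own line; circles are the difference within replicate 1, triangles within replicate 2 and red bars their mean, with a line at 0. The mitosis genes lie around a median of 0.99 and the S phase genes around 0.46, and Fen1 alone has a mean below 0.

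Markers of other cell types that the sort could hold were read on the same arrays. The summed signal of the 4 T cell members was 2886 and 4794 in dorsal and 4621 and 5417.5 in ventral cells, most of it from Thy1 in ventral cells (3086 and 4216, against 1347 and 2235 in dorsal cells, 1.06 ± 0.26, adjusted p = 0.421). The other 3 members, Cd3g, Zap70 and Ptprc, had log2 fold changes from -0.99 to -0.29. Of the 21 members for Langerhans and other antigen-presenting cells 12 were lower and 9 higher. Summed signals were 16021 and 15227 against 15579 and 11560. Without overlap 7 were lower, against 19.7% of all members, and 1 was higher, against 13.2%. The macrophage genes Lyz2 (862 and 1214 against 550 and 253) and C1qb (193 and 325 against 123 and 125) did not overlap between sites and were not called. No further antibody was named for the sort, and the part of these cells in the results above was not tested.

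Fibroblast and milk genes had the largest shifts among the marker lists of 10 or more members. Of the 10 fibroblast members 7 were higher (median 0.67), among them Sparc at 1560 and 1159 against 2072 and 2268, but Col1a1 stayed between 9.0 and 26.6 on these arrays and was called present on 1 ventral array only. Of the 13 mammary members 8 were higher (median 0.66), all 8 without overlap, against 13.2% of all members, and 1 was lower without overlap. Over 2-fold higher within both replicate numbers were 4, against 0.603% of all members. Only 10 of the 13 were called present on both dorsal arrays, so the others were members through ventral cells alone. The caseins, the main milk proteins, were by far highest on ventral replicate 1. Csn2 measured 204 and 348 in dorsal cells but 6185 and 699 in ventral cells, and Csn1s2a 133 and 161 but 4070 and 397. Both were thus higher in ventral cells within replicate 2 too. The summed signal of the list was 24187 in ventral replicate 1 and 9017 in ventral replicate 2, against 11672 and 9365 in dorsal cells, so that without ventral replicate 1 the sum did not exceed the dorsal one. The part of mammary cells in the 9 calls was not tested. Of the 21 members for hair follicle bulge and outer root sheath 12 were higher (median 0.13), with Lgr6 the only one called and the bulge marker Cd34 at 68.4 and 53.4 against 333 and 184. The lists for hair matrix and shaft (7 members), sebaceous gland (11), endothelium, pericytes and muscle (4), adipocytes (4), Merkel cells and nerve (5), melanocytes (3), neutrophils and mast cells (1) and erythroid cells (1) held no called gene.

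**Figure D4:**
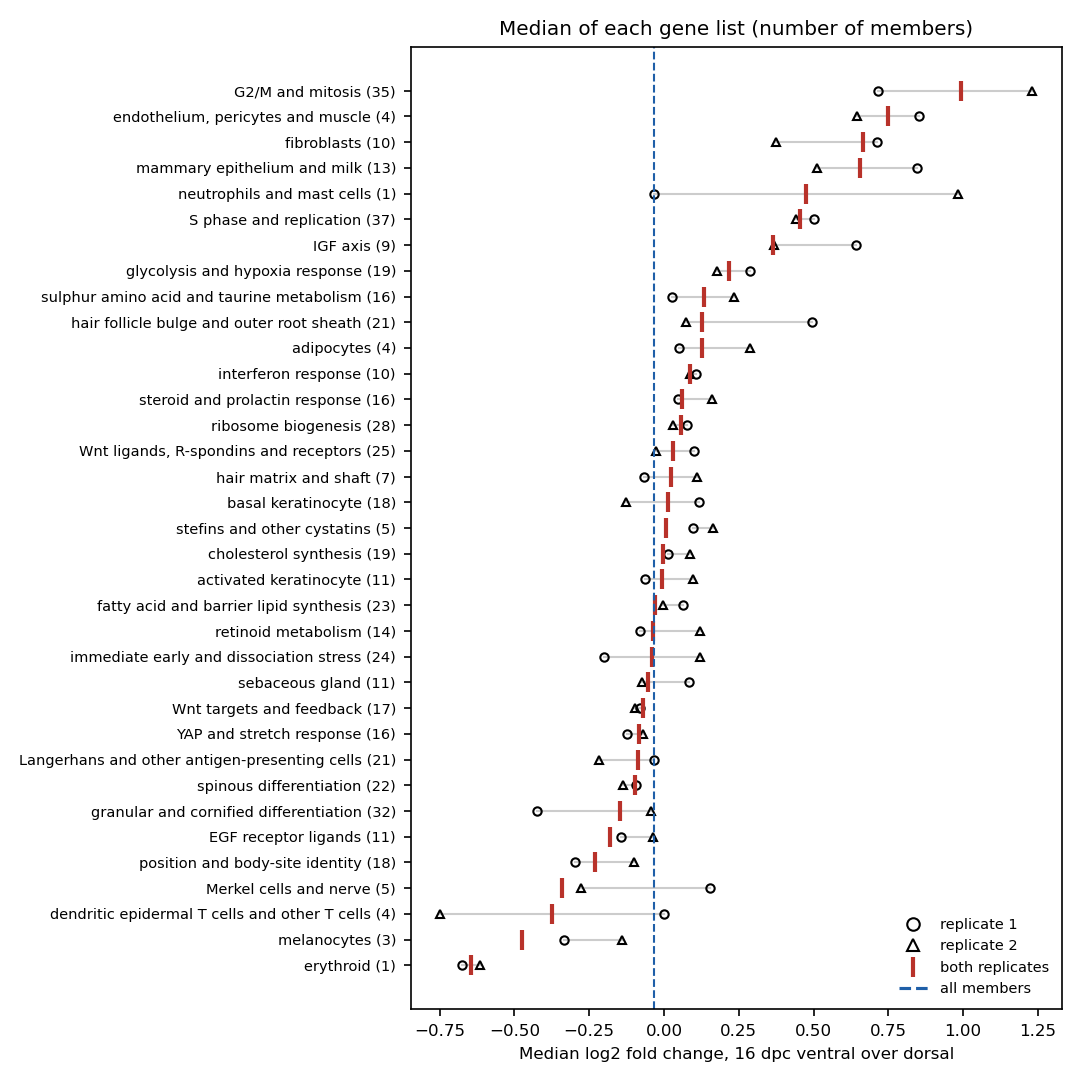
Median log2 fold change of ventral over dorsal signal for each of the 35 gene lists, with the number of members in parentheses; circles are medians within replicate 1, triangles within replicate 2, red bars over both, and the dashed line is the median of all members at -0.03. The mitosis list stands highest among the lists of 10 or more members.

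Of the 32 members for granular and cornified layers 23 were lower and 9 higher. The median was -0.15, with -0.43 within replicate 1 and -0.04 within replicate 2. Krt2 and Tgm3 were the only 2 called, both higher, where 0.0455% of all genes were called higher. Lor and Ivl, which build the cornified envelope, differed by -0.20 ± 0.22 and 0.04 ± 0.38, and Krt80 was lower, at 8232 and 6964 against 4304 and 4924 (-0.72 ± 0.16, adjusted p = 0.354). The 22 spinous members had a median of -0.10, whose sign turned with quantile normalization, with Krt1 and Krt10, the keratins of that layer, at -0.05 ± 0.20 and -0.15 ± 0.22. Krt6a, a keratin of wounded and dividing epidermis, measured 248 and 468 in dorsal and 1229 and 933 in ventral cells, but 189 and 1221 in virgin ventral cells (adjusted p = 0.967).

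The Wnt lists held no other called gene beside Lgr6 and Rspo3. Of the 17 members for targets and feedback 11 were lower (median -0.07) and Lgr6 was the only one called. Axin2, the feedback inhibitor used to mark epidermal stem cells, measured 1610 and 1721 in dorsal and 1156 and 1488 in ventral cells (-0.34 ± 0.17, adjusted p = 1), and the sign turned to 0.36 when a second probe set, called present on none of these arrays, was averaged in. Lgr5, the related receptor of the lower follicle, measured 89.5 and 68.1 against 392 and 123, opposite in direction to Lgr6 and not called. Of the 25 ligands and receptors 14 were higher (median 0.03), with Wnt4 at 4907 and 5276 against 6362 and 6819 and the receptor Fzd3 at 636 and 559 against 351 and 297, neither of them called.

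Among the 18 members of the list for position on the body, Tbx3 was the only one called, and the Hox genes divided by cluster. This division was chosen after the values were seen and has no test. All 4 HoxC members were higher in ventral cells, 3 of them without overlap, which held for 13.2% of all members. All 5 HoxB members were lower, 3 without overlap, which held for 19.7% of all members. Hoxb9 among them was a member only through dorsal cells, where it was higher. Of the 18 members of the list, 14 were called present on both dorsal and 17 on both ventral arrays. Of the 6 HoxA members 5 were lower, 3 of them without overlap, and 1 was higher without overlap. No HoxD gene on the array was a member. Hoxc8 measured 1118 and 1389 in dorsal and 2275 and 2753 in ventral cells (1.01 ± 0.18, adjusted p = 0.170), and Hoxc4 430 and 572 against 848 and 1078. Hoxa5 measured 2896 and 3411 in dorsal and 1510 and 1558 in ventral cells (-1.03 ± 0.19, adjusted p = 0.175). At 16 dpc Hoxb9 was called present only in dorsal cells, at 155 and 162 against 55.7 and 23.96 (4.33-fold lower in measured signal). The virgin ventral arrays lay beside the ventral arrays at 16 dpc for these genes, with 2566 and 2177 for Hoxc8, 1902 and 1361 for Hoxa5 and 60.4 and 22.6 for Hoxb9.

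**Figure D5:**
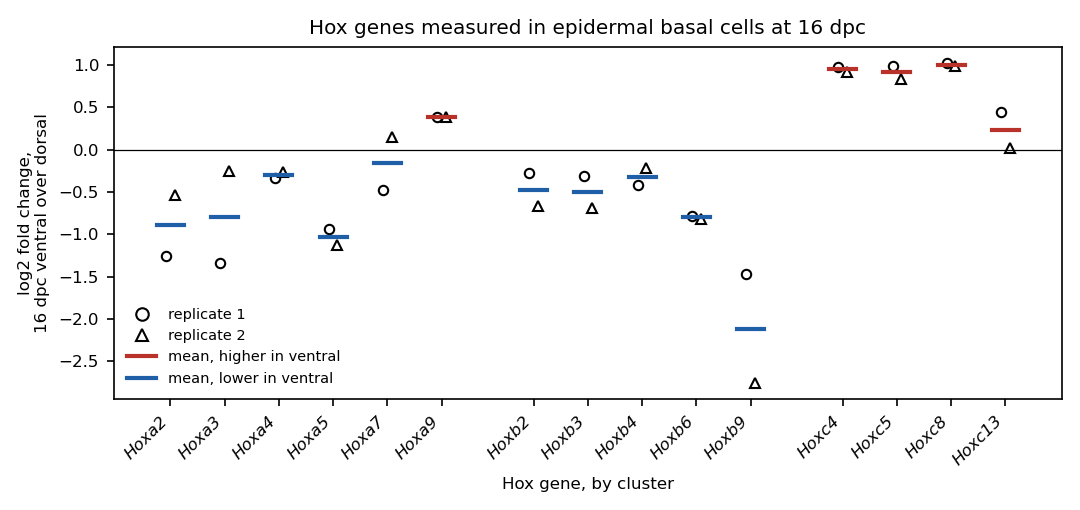
Log2 fold change of ventral over dorsal signal at 16 dpc for the 15 Hox genes that were members, grouped by cluster A, B and C; circles are replicate 1, triangles replicate 2, and bars the mean, red where higher and blue where lower in ventral cells. The HoxC means lie between 0.24 and 1.01, the HoxB means between -2.11 and -0.32, and Hoxa9 is the only HoxA gene above 0.

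Of the metabolic lists, 1 held genes called in opposite directions and another several genes of 1 family. The 16 members for sulphur amino acids and taurine had a median of 0.13, with Gadl1 higher and Cbs lower, and Cth, the enzyme that acts after Cbs, at 255 and 301 in dorsal and 399 and 442 in ventral cells (0.60 ± 0.22, adjusted p = 0.835). The 14 retinoid members had a median of -0.04. Of these, 4 alcohol dehydrogenase genes, grouped as a family after their values were seen, were each lower within both replicate numbers. These were Adh6b, Adh6a (416 and 176 against 142 and 11.6, not called present in ventral cells), Adh1 (3728 and 2288 against 1592 and 1419) and Adh7 (3306 and 2268 against 2185 and 1509), and all 4 were called with the block on the 4 arrays alone, against 0.937% of all genes called lower there. Adh6a and Adh6b were members only through dorsal cells, where they were higher. Adh5, of the same family, went the other way, at 5683 and 5607 against 6026 and 6552 (0.15 ± 0.18). Of the 19 members for glycolysis and hypoxia 16 were higher within both replicate numbers (median 0.22), and for 14 both ventral signals lay above both dorsal ones, against 13.2% of all members, with 1 lower without overlap. Examples were Egln3, an oxygen sensor, at 692 and 725 against 1740 and 1329, and the glycolytic enzyme gene Pgk1 at 7159 and 7884 against 9753 and 11552. None of the 19 was called with the block on all 6 arrays.

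Of 15 members that the study itself names, a set chosen partly on these arrays and so no independent evidence, 11 were higher in ventral cells and 3 were called (Tbx3, Tgm3 and Krt2). Sfrp1 and Igfbp2, a secreted Wnt modulator and an IGF binding protein, measured 1058 and 1187 against 1261 and 1431, and 685 and 235 against 1566 and 317. The study named these 2 genes from arrays of dermis and detected neither RNA in epidermis by in situ hybridisation. The log2 fold change of Igfbp2 turned to -0.34 without ventral replicate 1. Tfrc, the transferrin receptor of dividing cells, measured 1670 and 2349 against 2077 and 1824, with overlap between sites. No gene of the remaining process lists was called, with or without the block on all 6 arrays. For the response to steroids and prolactin 11 of 16 members were higher (median 0.06), with the oestrogen receptor gene Esr1 at 567 and 528 in dorsal and at 830 and 800 in ventral cells (0.57 ± 0.18, adjusted p = 0.745). For the targets of YAP, a cofactor switched on by stretch, 9 of 16 were lower (median -0.08), and its well-known targets went opposite ways, Ccn2 at 382 and 407 against 727 and 620 and Ccn1 at 834 and 1041 against 384 and 828. Cholesterol synthesis (19 members), fatty acid and barrier lipids (23), ribosome biogenesis (28), interferon response (10), immediate early genes (24) and activated keratinocytes (11) had medians between -0.04 and 0.09, and the EGF receptor ligands (11) a median of -0.18.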

How the data were processed

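RNA of α6-integrin-positive epidermal cells was hybridised by the authors to Affymetrix mouse 3′ arrays of 45101 probe sets with the GeneChip 3′ IVT kit, and Expression Console version 1 is named in the submitters' processing notes. The deposited files give a signal intensity for each probe set on a linear scale, scaled by the authors to a trimmed mean of 500.0 on every array, with a detection call of present, marginal or absent. No build for the probe sets is given in the sources used here. Such scaling hides any change in the total RNA of a cell. Because labelling starts at the 3′ end of a transcript, degraded RNA lowers the signal of probe sets that lie upstream.

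The log2 of each signal was used as scaled by the authors, after values under 1 had been raised to 1. Each gene was represented by its probe set with the highest mean log2 signal over the 6 arrays. Platform annotation names 1 gene for 34945 probe sets, several for 932 and none for 9160, and no gene was named from a probe set with several. The 10993 genes with present calls on both arrays in 1 or more of the 3 groups were fitted with limma 3.58.1 in R 4.3.3 (lmFit, eBayes with a trend on mean level, 3 residual and 5.79 prior degrees of freedom), two-sided, with Benjamini-Hochberg adjustment and a threshold of 0.05. The fit was tested on simulated data. The study's methods name no test for the arrays and use a 2-fold rule. Present calls were 21285 to 24053 per array, the lowest signal called present was 6.34 to 11.3, and 2 arrays a group limit the precision.

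The replicate numbers were judged to pair the arrays because their column headers share a prefix and the series was run as a repeated experiment. Deviations of replicate 1 from the group mean correlated over genes at 0.448 between both groups at 16 dpc, and at 0.00688 and 0.0289 between these and virgin ventral cells. The fit behind the calls has no block, and the value with the block is given where it changes a call.

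Genes named are all those called, the 15 largest in each direction among genes over 2-fold within both replicate numbers with a standard symbol and groups that do not overlap, those the study names, and up to 4 per list by smallest p. Any other gene named was chosen after its values were seen. The members and the 35 lists were chosen with earlier results of these data known. A list is described by counts and medians with no test of its own. Motifs were matched as exact letters on both strands.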

Additional observations from a re-analysis of the deposited data

How the results depend on the processing

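All 9 called genes kept their direction under each alternative that fitted them; Tbx3 could not be fitted among genes present on all 4 arrays. With the replicate block on all 6 arrays 11 genes were higher and 5 lower, all 9 included, and with the block on the 4 arrays at 16 dpc alone 186 and 103. The number of calls was otherwise small and unstable. Higher and lower genes numbered 0 and 0 on those 4 arrays without a block (606 genes at an unadjusted p under 0.05 by limma), with signals under 32 set to 32 (547) and when the probe sets of a gene were averaged (531), where adjusted p of the 9 genes ran up to 0.972, and 0 and 1 by eBayes without a trend (605). Leaving out 1 array at a time gave 0 to 6 higher and 0 to 1 lower genes by limma. All calls were lost without ventral replicate 1 (518 genes at an unadjusted p under 0.05, adjusted p of the 9 genes from 0.0664 to 0.176), virgin ventral replicate 1 (604) or virgin ventral replicate 2 (601), and 5, 4 and 4 of the 9 were kept without dorsal replicate 1, dorsal replicate 2 and ventral replicate 2. The cause was not tested. Genes over 2-fold within both replicate numbers went from 65 higher and 34 lower to 31 and 14 with 32 added to each signal, to 483 and 418 with no filter on detection, and to 43 and 15 among genes present on all 4 arrays. The S phase median was 0.50 within replicate 1, and the mitosis median ran from 0.71 to 1.23 over all settings. Of 33 list medians, the sign turned for 7 when probe sets were averaged, for 6 with no filter on detection, for 7 and 6 within replicate 1 and replicate 2 alone, and for 3 with quantile normalization. Averaging probe sets also turned 5 of 46 named genes (Axin2, Enpp3, Itga6, Krt14 and Tfrc) and made the log2 difference of 11 over 1.5 times smaller, among them Tbx3 (3.27), Trpm3 (-1.45), Igfbp5 (1.30) and Igfbp7 (0.86). Low signals set the limit: below the lowest present signal of an array, 6.34 to 11.3, only a bound is known.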

Other observations

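Some genes outside the lists and rules above, chosen after their values were seen, differed by about 2-fold with little spread between arrays, and none passed the test. Casp1 and Casp4, the inflammatory caspases, measured 514 and 446 against 1105 and 1205, and 184 and 246 against 607 and 559, dorsal against ventral (adjusted p = 0.106 for both by limma). Mmp2, a gelatinase, measured 1340 and 1080 against 2543 and 2939 (log2 fold change 1.18 ± 0.22 SE, adjusted p = 0.171). In the other direction, Dapl1, a gene of differentiating epithelia, measured 13599 and 13531 against 6988 and 7512 (-0.90 ± 0.15, adjusted p = 0.129), and Pou3f1, a POU factor of the suprabasal epidermis, 9059 and 9231 against 4570 and 5273 (-0.90 ± 0.15, adjusted p = 0.126). With the block on the 4 arrays at 16 dpc alone all 5 of these genes had adjusted p from 0.00138 to 0.00332, and with the block on all 6 arrays none passed. Virgin ventral cells gave 748 and 978 for Casp1, 10616 and 12227 for Dapl1 and 7996 and 7379 for Pou3f1, between the sites at 16 dpc in each case.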
